A study of Mus musculus with 6 samples.

Results

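Cyclins, their kinases and the proliferation antigen Ki-67 were examined in mouse liver tumors with and without the mitochondrial topoisomerase gene Top1mt. The 10 genes were chosen by name and role, with earlier results of these data known. They were Ccnd1, Ccne1, Ccne2, Ccna2, Ccnb1, Ccnb2, Cdk1, Cdk2, Cdkn2a and Mki67. All 10 were found among the 30236 genes of the deposited table, and all 10 were among the 22677 genes tested, which are those whose mean lay above the lowest 25%. RNA came from hepatocellular carcinomas of male C57BL/6 mice, 3 labelled WT and 3 labelled Top1mt -/- (Top1mt-KO), the latter carrying the germline knockout in every cell. For sequencing, the study took tumors of the same size from both genotypes, so the levels below apply to size-matched tumors. Both genotypes received the liver mutagen diethylnitrosamine on day 14 after birth and the liver toxin carbon tetrachloride for 14 weeks from week 8, and tumors were collected at 22 weeks of age, so both carry the same carcinogen and injury history. Each library is 1 tumor, and the study describes the tumors as independent, but neither it nor the labels say whether each came from a separate mouse, so p-values measure only the spread between these tumors. Values are log2 expression, normalized between libraries by the authors. Differences are on that scale unless stated otherwise, and the authors' log2 transform is not named in the sources used here.

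D-type cyclins with CDK4 and CDK6, and then E-type cyclins with CDK2, drive a cell from G1 into S phase by inactivating the RB protein and freeing E2F transcription factors. Cyclin A2 follows in S phase and G2, and cyclins B1 and B2 with CDK1 carry the cell into mitosis. Cdkn2a encodes p16INK4a, an inhibitor of CDK4 and CDK6, and, from another first exon, p19ARF, a stabiliser of p53. In adult liver most hepatocytes rest outside the cycle. Cyclin D1 is induced by growth factors and can be high without division, whereas the mitotic genes and Mki67 are transcribed mainly in dividing cells.

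The promoters of mitotic genes share short elements, and they are shown because the mitotic genes are set beside the G1 genes below. RefSeq promoter sequences of GRCm38.p6, from 250 bases before to 50 bases after an annotated transcript start, matched 7 of the 10 genes (not Ccnd1, Ccna2 or Ccne2). The 4 mitotic genes among them and Ccne1 for comparison are printed 5' to 3' on the gene's strand. Capitals mark the cell cycle homology region (CHR, TTTGAA), its variant TTTAAA, the CCAAT box bound by NF-Y, and an E2F-type sequence (TTTNNCGC), each searched on both strands, with no overlap between matches.
Ccnb1, chr13:100786437-100786736, minus strand: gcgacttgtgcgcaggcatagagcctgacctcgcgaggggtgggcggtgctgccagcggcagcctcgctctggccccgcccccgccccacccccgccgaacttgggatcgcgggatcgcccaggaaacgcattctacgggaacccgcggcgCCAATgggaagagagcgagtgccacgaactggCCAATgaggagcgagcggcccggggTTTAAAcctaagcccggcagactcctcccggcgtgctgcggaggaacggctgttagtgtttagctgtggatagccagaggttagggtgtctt
Ccnb2, chr9:70421505-70421804, minus strand: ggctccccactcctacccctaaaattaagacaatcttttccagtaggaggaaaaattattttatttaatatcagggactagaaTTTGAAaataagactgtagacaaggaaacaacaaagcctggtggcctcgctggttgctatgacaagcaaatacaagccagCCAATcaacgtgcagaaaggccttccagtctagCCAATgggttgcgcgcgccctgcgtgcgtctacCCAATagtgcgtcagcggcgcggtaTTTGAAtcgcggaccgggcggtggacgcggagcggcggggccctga
Cdk1, chr10:69352863-69353162, minus strand: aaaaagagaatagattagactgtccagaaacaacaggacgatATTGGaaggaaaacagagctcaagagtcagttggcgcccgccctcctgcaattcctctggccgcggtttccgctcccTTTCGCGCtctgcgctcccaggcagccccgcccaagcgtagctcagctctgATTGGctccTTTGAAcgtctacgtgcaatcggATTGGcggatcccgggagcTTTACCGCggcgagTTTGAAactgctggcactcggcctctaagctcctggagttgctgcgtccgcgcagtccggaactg
Mki67, chr7:135716330-135716629, minus strand: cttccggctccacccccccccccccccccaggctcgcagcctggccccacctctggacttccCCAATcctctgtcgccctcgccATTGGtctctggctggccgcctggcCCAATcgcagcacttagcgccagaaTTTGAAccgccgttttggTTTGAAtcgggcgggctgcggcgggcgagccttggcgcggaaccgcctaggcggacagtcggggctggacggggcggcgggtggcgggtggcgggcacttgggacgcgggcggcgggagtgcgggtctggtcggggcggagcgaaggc
Ccne1, chr7:38107441-38107740, minus strand: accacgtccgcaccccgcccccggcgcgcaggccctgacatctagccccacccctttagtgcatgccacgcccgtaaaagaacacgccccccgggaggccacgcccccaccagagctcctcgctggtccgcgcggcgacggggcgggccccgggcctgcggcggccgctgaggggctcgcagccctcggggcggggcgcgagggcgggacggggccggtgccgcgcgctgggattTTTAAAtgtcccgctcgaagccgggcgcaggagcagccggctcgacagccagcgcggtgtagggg

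TTTGAA was present in 3 of the 4 mitotic promoters, 2 times in each of Ccnb2, Cdk1 and Mki67, and in 0 of the 3 other genes with a promoter (Ccne1, Cdk2 and Cdkn2a). Of all 32851 promoter windows of this length, 17.9% held it and 2.31% held it at least 2 times. Ccnb1 held the variant TTTAAA, 42 bases before the start, as did Ccne1, 15 bases before it, and 13.2% of all promoters hold it. CCAAT was found at least 2 times in 4 of 4 mitotic promoters, against 11.7% of all promoters. In Ccnb1, Ccnb2 and Cdk1 neighbouring CCAAT boxes lay 32 or 33 bases apart, except for a distant one in Cdk1 (128 bases), while those of Mki67 lay 22 and 25 bases apart. The E2F-type sequence occurred in Cdk1, Cdk2 and Cdkn2a, and in 5.17% of all promoters. These are matches of letters and not tests of binding.

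**Figure D1:**
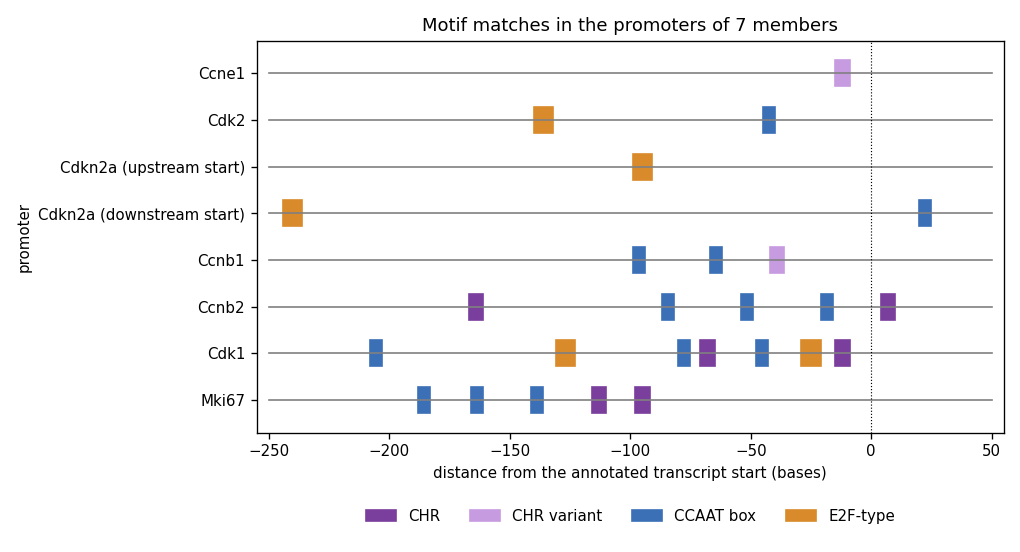
Motif matches along 8 promoter windows of 7 genes, with the distance from the annotated transcript start in bases on the x axis and 1 window per row (Cdkn2a has 2 starts). Blue boxes (CCAAT) appear at least 2 times in each of the 4 mitotic genes in the lower rows, dark purple boxes (CHR) in 3 of them, and no dark purple box appears in the rows of Ccne1, Cdk2 and Cdkn2a.

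The libraries were checked before the genotypes were compared. Top1mt measured 7.71, 5.99 and 8.01 across WT replicates 1 to 3, against 5.58, 6.41 and 6.32 across KO replicates 1 to 3. Its log2 fold change was -1.13 (standard error 0.52, unadjusted p by limma = 0.0611, limma's adjusted p = 0.999). The knocked-out gene itself thus did not pass, so a gene that does not pass cannot be read as unchanged. WT replicate 2 was lower than KO replicates 2 and 3, which goes against its label, so it is called the library labelled WT replicate 2, and every direction below rests on the labels. The library labelled KO replicate 1 stood apart in another way, since a single transcript, Gm42418, made up 17.7% of its summed linear values, against at most 0.387% in the others. Hepatocyte markers were abundant in all 6 libraries (Alb between 20.26 and 21.12), as the tissue label says. Across all genes tested, limma called 0 between the genotypes at an adjusted p under 0.05 (0% of 22677), and 985 (4.34%) had an unadjusted p under 0.05. None of the 10 genes passed, and their adjusted p by limma was 0.999 in each case.

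Transcripts of the mitotic genes overlapped between the libraries labelled WT and KO. Mki67, whose protein coats mitotic chromosomes and marks cycling cells, measured 9.63, 10.65 and 10.67 across WT replicates 1 to 3, against 10.81, 10.50 and 10.31 across KO replicates 1 to 3. WT replicate 1 was the lowest library by 0.68, and the other WT libraries lay within the range of the KO libraries. Mki67 had a log2 fold change of 0.22 in KO against WT (standard error 0.29), whose 95% interval by limma ran from -0.45 to 0.89. Without WT replicate 1 it was -0.12.

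Ccna2, the cyclin of S phase and G2, measured 6.94, 8.01 and 7.87 across WT, against 8.09, 7.40 and 7.70 across KO, in replicate order. Ccnb1, the main mitotic cyclin, measured 6.19, 7.49 and 7.502 across WT, against 7.38, 6.59 and 6.92 across KO. Cdk1, the mitotic kinase, measured 6.48, 7.27 and 8.07 across WT, against 7.81, 7.53 and 7.40 across KO. In all 3 genes WT replicate 1 was again lowest, and the KO libraries lay between the WT extremes, apart from KO replicate 1 at the top for Ccna2. Ccnb2, a second mitotic cyclin, measured 6.68, 8.36 and 7.05 across WT, against 7.04, 7.08 and 6.98 across KO. The library labelled WT replicate 2 exceeded the next highest by 1.28 for Ccnb2, while the 3 KO libraries had an SD of 0.048. The log2 fold changes were 0.12 (standard error 0.32) for Ccna2, -0.10 (standard error 0.39) for Ccnb1, 0.31 (standard error 0.37) for Cdk1 and -0.33 (standard error 0.40) for Ccnb2. Each of these changed sign when 1 library was left out. Without WT replicate 1, Ccna2 was -0.21 and Cdk1 -0.090. Without the library labelled WT replicate 2, Ccnb1 was 0.12 and Ccnb2 0.17.

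**Figure D2:**
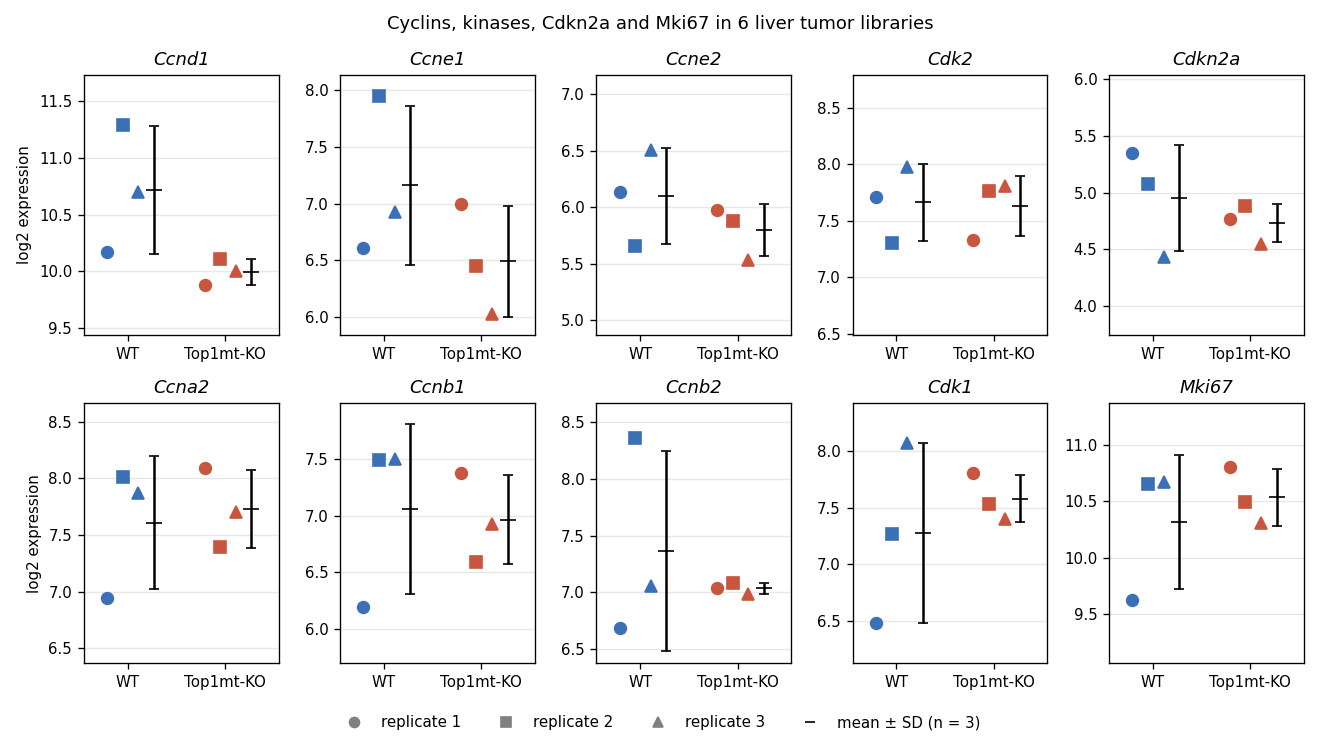
Log2 expression of each gene (y axis, all panels spanning the same number of log2 units) in the 3 WT (blue) and 3 Top1mt-KO (red) libraries, with the marker shape giving the replicate and black bars the mean ± SD. Ccnd1 is the gene whose groups do not overlap, and WT replicate 1 (blue circle) is the lowest library in all 5 genes of the lower row.

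The G1 cyclins were lower on average in the libraries labelled KO. Ccnd1, the cyclin that links growth signals to CDK4 and CDK6, measured 10.17, 11.29 and 10.69 across WT replicates 1 to 3, against 9.88, 10.11 and 10.003 across KO replicates 1 to 3. The groups did not overlap, although WT replicate 1 lay only just above KO replicate 2, and the library labelled WT replicate 2 was highest by 0.60. The WT mean was 10.7 ± 0.56 (SD, n = 3) and the KO mean 9.995 ± 0.12 (SD, n = 3). This is a log2 fold change of -0.72 (standard error 0.26, limma's adjusted p = 0.999, unadjusted p = 0.0251). It amounts to a KO level of 0.606 times the WT level only if the values are plain log2, and their transform is not known. The exact two-sided permutation test gave p = 0.1, the smallest that 20 regroupings of 3 against 3 allow. Ccnd1 was 1 of 10 members that did not overlap, where 8.28% of all genes tested do not overlap in either direction and 4.33% do so with KO lower. It was also 1 of 10 with an unadjusted p under 0.05, where 2.56% of all genes reach this with KO lower. A single gene of 10 cannot be told from either share. Without limma's trend the unadjusted p of Ccnd1 was 0.0556. Its unadjusted p by limma also rose above 0.05 when certain single libraries were left out. It was 0.0638 without the library labelled WT replicate 2, 0.0539 without WT replicate 3, 0.0702 without KO replicate 1 and 0.0646 without KO replicate 3. It stayed below 0.05 without WT replicate 1 (0.00258) and without KO replicate 2 (0.0377). Without the library labelled WT replicate 2 the log2 fold change of Ccnd1 was -0.44, and without WT replicate 1 it was -0.998.

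Ccne1, the first of the E cyclins that activate CDK2, measured 6.61, 7.95 and 6.92 across WT, against 6.99, 6.45 and 6.02 across KO. The library labelled WT replicate 2 was again highest, by 0.96, and KO replicate 1 lay above the other WT libraries, so the groups overlapped. Its log2 fold change was -0.67 (standard error 0.40), and -0.28 without the library labelled WT replicate 2. Ccne2, the other E cyclin, measured 6.13, 5.65 and 6.50 across WT, against 5.98, 5.87 and 5.54 across KO. It put the library labelled WT replicate 2 second from the bottom, the reverse of Ccne1. Its log2 fold change was -0.30 (standard error 0.31), and -0.096 without WT replicate 3. Cdk2, the kinase of cyclins E and A, measured 7.71, 7.30 and 7.97 across WT, against 7.33, 7.76 and 7.80 across KO. It had a log2 fold change of -0.029 (standard error 0.23), with the 95% interval by limma from -0.56 to 0.50, and the smallest range over the libraries of the 10 genes (0.67). All 4 G1 genes had a negative log2 fold change, where 52.3% of all genes tested do, and 1 of the 4 passed an unadjusted p of 0.05.

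Cdkn2a, the inhibitor locus, measured 5.35, 5.07 and 4.43 across WT, against 4.77, 4.88 and 4.55 across KO. Both its highest and its lowest library were WT, and its log2 fold change was -0.22 (standard error 0.37). It was -0.023 without WT replicate 1. The table counts p16INK4a and p19ARF transcripts together, so the 2 products of the locus cannot be told apart.

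**Figure D3:**
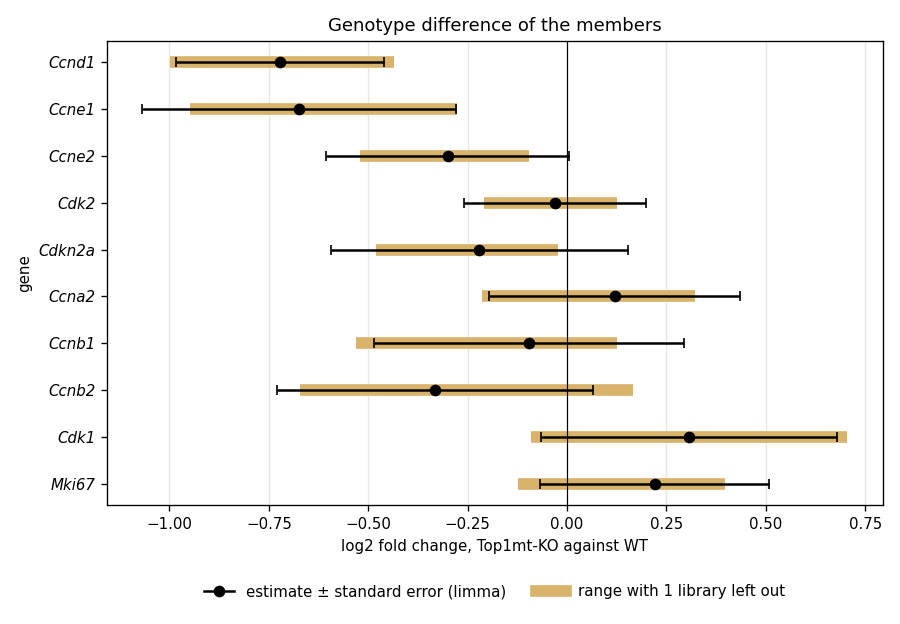
Log2 fold change in Top1mt-KO against WT for each gene (points, with the standard error by limma as black bars), and the range of the estimate when any 1 library is left out (sand-coloured bands). The bands of Ccnd1, Ccne1, Ccne2 and Cdkn2a stay below 0, and those of the other 6 genes cross it.

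A proliferation level was computed for each library as the mean, over the 5 mitotic genes, of the log2 value minus the gene's mean over the 6 libraries. It measured -0.76, 0.41 and 0.29 across WT replicates 1 to 3, against 0.28, -0.13 and -0.083 across KO replicates 1 to 3. The WT libraries thus held both the lowest and the highest level, and the difference of the group means, 0.044, was far below the SD of 0.64 among the WT libraries. This level is one of RNA only. By staining for Ki-67 protein, the study found liver tumors of this model less proliferative without Top1mt. How the RNA level relates to that staining was not tested. WT replicate 1 was the lowest of the 6 libraries in 5 of 5 mitotic genes, while it was the lowest in 17.4% of all genes tested. Without it the difference of the group means was -0.33. The top of the order was less settled. When Ccnb2 was left out, a choice made after seeing its values, the library labelled WT replicate 2 fell to 0.22, below WT replicate 3 at 0.40 and KO replicate 1 at 0.39.

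Genes outside the 10 gave part of the same order. In a list of 28 further mitotic genes, which holds kinases such as Plk1 and Aurka and spindle and kinetochore proteins, WT replicate 1 was lowest in 21. Its list mean was -0.54, against 0.42 in WT replicate 3, 0.23 in KO replicate 3 and 0.15 in KO replicate 1. This list put the library labelled WT replicate 2 at -0.12, unlike the 5 members, and WT replicate 3 was highest in 19 of its 28 genes. A list of 20 S phase genes, such as Pcna and the ribonucleotide reductase subunits, was highest in WT replicate 3 for 15 genes and lowest in WT replicate 1 for 8. Over all genes tested WT replicate 3 was highest in 16.7% and WT replicate 1 lowest in 17.4%. The 5 stellate cell and myofibroblast markers had their highest mean, 0.87, in WT replicate 1, and their lowest, -0.95, in KO replicate 1, with a summed level between 11.95 and 13.16 in WT and between 11.12 and 12.66 in KO (log2 of the summed linear values). In bulk tissue a smaller share of dividing cells and less RNA per dividing cell cannot be told apart, and the part of stromal content in these levels was not tested.

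**Figure D4:**
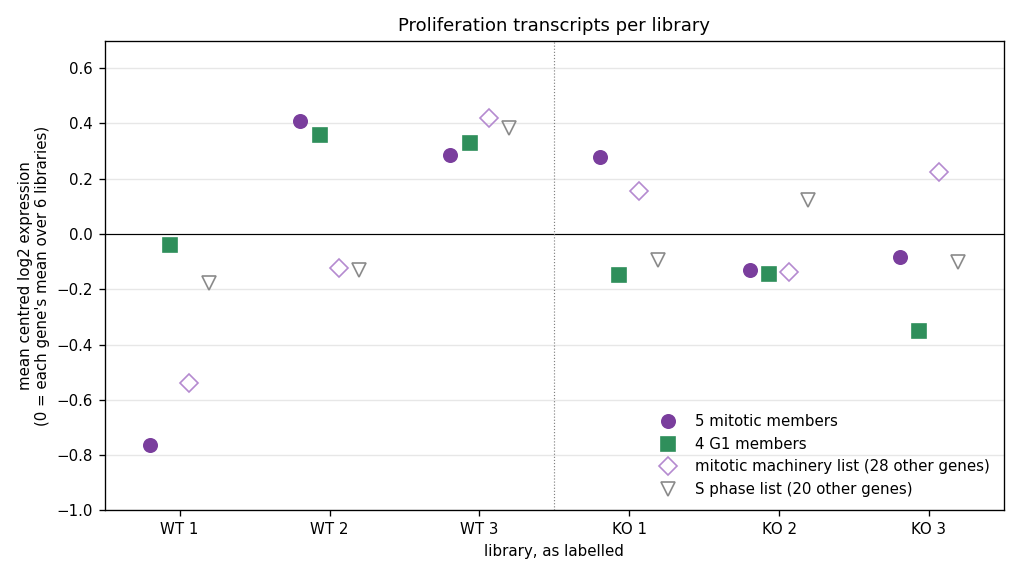
Mean centred log2 expression (y axis, 0 is each gene's mean over the 6 libraries) per library for the 5 mitotic members, the 4 G1 members and 2 lists of other genes (open symbols). WT replicate 1 is lowest for the mitotic members (-0.76) and for the mitotic machinery list (-0.54) but not for the G1 members (-0.04).

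The means of the G1 and of the mitotic genes had the same sign in every library but KO replicate 1. Single G1 genes did not always move together. No cut-off for agreement was set, so the gap between the means is given for each library. The library labelled WT replicate 2 and WT replicate 3 came first and second in both means. The G1 mean minus the mitotic mean was -0.052 and 0.043 in them, -0.016 in KO replicate 2 and -0.27 in KO replicate 3. The mean of the 4 G1 genes measured -0.040, 0.36 and 0.33 across WT replicates 1 to 3, against -0.15, -0.14 and -0.35 across KO replicates 1 to 3. The largest disagreement was in WT replicate 1, where the G1 mean exceeded the mitotic mean by 0.72. KO replicate 1 disagreed in the other direction, by -0.43. In it 4 of 5 mitotic genes lay above their own means. Its G1 genes were split, with 2 of 4 above (Ccne1 at 0.17 and Ccne2 at 0.031) and Ccnd1 (-0.48) and Cdk2 (-0.32) below. In WT replicate 3 both groups were raised, with 4 of 4 G1 genes and 4 of 5 mitotic genes above their own means. In the library labelled WT replicate 2, 4 of 5 mitotic genes but only 2 of 4 G1 genes were above. There Ccnd1 (0.94) and Ccne1 (1.13) were raised, while Ccne2 (-0.29) and Cdk2 (-0.34) lay below their means. The WT mean of the G1 score was 0.22 ± 0.22 (SD, n = 3) and the KO mean -0.22 ± 0.12 (SD, n = 3). The difference of -0.43 ran from -0.56 to -0.36 when 1 library was left out.

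Correlations over the 6 libraries were computed for all 45 pairs of genes. Among the 10 mitotic pairs all had a positive Pearson's r, with a median of 0.76 and a range from 0.089 to 0.96, and the median Spearman's rho was 0.57. The closest pair was Ccna2 and Ccnb1 (r = 0.96, exact permutation p = 0.00833, adjusted p = 0.281, rho = 0.77, exact permutation p = 0.103, adjusted p = 0.842). Of the 45 pairs, 5 had an exact p under 0.05 and 0 had an adjusted p under 0.05. Leaving out the 2 libraries farthest from the median of the first gene lowered the mitotic median to 0.47, and leaving out WT replicate 1 alone lowered it to 0.41, so a large part of the relation rests on that library. On deviations from the genotype means the median was 0.79. Ccnb2 and Cdk1 were the least alike of the mitotic genes (r = 0.089, exact permutation p = 0.806, adjusted p = 0.956, rho = 0.26, exact permutation p = 0.658, adjusted p = 0.918), and without the library labelled WT replicate 2 their r was 0.92, whereas without WT replicate 1 it was -0.58.

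Between G1 and mitotic genes the 20 pairs had a median r of 0.10 and ran from -0.60 to 0.84, with 13 above 0 and 0 with an exact p under 0.05. The sign of this median was not settled, since it was -0.51 without the 2 libraries farthest from the median of the first gene and 0.36 on deviations from the genotype means. The highest were Ccnd1 with Ccnb2 (r = 0.84, exact permutation p = 0.101, adjusted p = 0.456, rho = 0.49, exact permutation p = 0.356, adjusted p = 0.842) and Ccne1 with Ccnb2 (r = 0.83, exact permutation p = 0.0681, adjusted p = 0.403, rho = 0.49, exact permutation p = 0.356, adjusted p = 0.842). Both rest on 1 library, since without the library labelled WT replicate 2 they fell to 0.072 and 0.10. The 6 pairs among G1 genes had a median r of 0.036, or 0.39 without the 2 farthest libraries, and whether they varied together less than the mitotic genes was not tested. Among them Ccnd1 and Ccne1 were the most alike (r = 0.81, exact permutation p = 0.0583, adjusted p = 0.403, rho = 0.43, exact permutation p = 0.419, adjusted p = 0.895). Their r was 0.33 without the same library and -0.34 without the 2 libraries farthest from the median of Ccnd1. Cdk2 had a negative r with Ccne1, the cyclin it binds (r = -0.67, exact permutation p = 0.132, adjusted p = 0.54, rho = -0.66, exact permutation p = 0.175, adjusted p = 0.842). Cdkn2a and Cdk1 had a negative r (r = -0.86, exact permutation p = 0.025, adjusted p = 0.281, rho = -0.83, exact permutation p = 0.0583, adjusted p = 0.842), and their r was -0.31 without WT replicates 1 and 3. All values share the libraries' normalization.

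**Figure D5:**
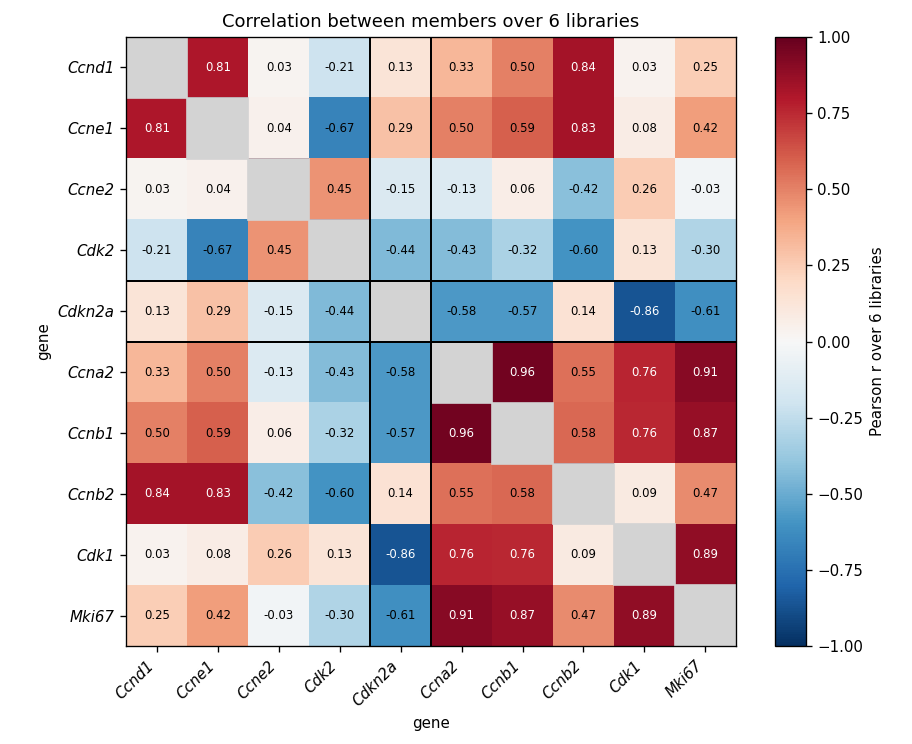
Pearson's r over the 6 libraries for each pair of genes (colour and number), with black lines separating the G1 genes, Cdkn2a and the mitotic genes. The mitotic block at the lower right is positive throughout, from 0.09 to 0.96, while the block of G1 against mitotic genes runs from -0.60 to 0.84.

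For the 10 genes, though not over all genes tested, the libraries labelled WT were more spread than those labelled KO. The SD among WT libraries exceeded that among KO libraries in 10 of 10 genes, where 46.4% of all genes tested show this, and the median ratio of the WT to the KO SD was 2.13, against 0.927 over all genes tested. The ratio was over 2 in 5 of the 10 genes and in 19.3% of all genes tested. The 10 genes are not independent of each other, and with 3 libraries per genotype each SD is imprecise.

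Further genes of the cycle were compared through lists, of which 0 genes passed an adjusted p of 0.05 by limma. Among 10 other cyclins and kinases tested, 6 had lower and 4 had higher means in KO (median log2 fold change -0.12). Cdk6, a partner of cyclin D1, had the smallest p of this list. It measured 9.30, 9.66 and 9.61 across WT, against 9.23, 9.28 and 9.06 across KO, without overlap, as are 4.33% of all genes tested with KO lower (log2 fold change -0.33, standard error 0.15, unadjusted p by limma = 0.0565). Among 13 RB and E2F genes 7 were higher and 6 lower, with a median of 0.024, and 3 of the 13 did not overlap, all lower in KO, against 4.33% of all genes tested. These were the activator E2f1 (log2 fold change -0.39, standard error 0.28) and the E2F partners Tfdp1 (-0.23, standard error 0.14) and Tfdp2 (-0.46, standard error 0.19, unadjusted p by limma = 0.0442). Over all genes tested the median log2 fold change was -0.015.

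The 6 CDK inhibitors outside Cdkn2a were split, with 3 higher and 3 lower in KO. Cdkn1a, which encodes the p53 target p21, measured 8.20, 6.62 and 6.73 across WT, against 8.30, 7.47 and 8.58 across KO. Its log2 fold change was 0.94 (standard error 0.46, unadjusted p by limma = 0.0747), with WT replicate 1 at the level of the KO libraries. Of 12 CDK activators and ubiquitin ligase subunits 8 were higher and 4 lower, and Wee1, which restrains CDK1, had the smallest p (log2 fold change -0.96, standard error 0.45, unadjusted p by limma = 0.0658). Of the 28 mitotic machinery genes 21 were higher and 7 lower, with a median of 0.13, and 0 had an unadjusted p under 0.05. This split moved with single libraries. Without WT replicate 1, 14 were higher and 14 lower, with a median of 0.00034 and a mean of -0.067. Without WT replicate 3, 27 were higher and 1 lower (median 0.44), and without KO replicate 2, 25 were higher and 3 lower (median 0.24). Over all genes tested 52.3% were lower in KO. The smallest p was that of Cenpa, the centromeric histone (log2 fold change 0.35, standard error 0.25, unadjusted p by limma = 0.210). Of the 20 S phase genes 10 were higher and 10 lower, with Fen1, the flap endonuclease listed at only 1.07 to 2.92, at a log2 fold change of -0.91 (standard error 0.49, unadjusted p by limma = 0.0994).

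Levels of markers of other cells are given beside Ccnd1, and 0 of them passed adjustment by limma. All 4 neutrophil markers were lower in KO, with a summed level of 7.90 to 9.61 in WT and 7.40 to 8.02 in KO, and Ly6g, which defines these cells, lay between 0.50 and 3.21. Of 5 bile duct and progenitor markers 3 were lower, and Krt19 and Epcam did not overlap. Of the other markers Cd3e did not overlap with KO lower, and Cd3g, Ttr, Pecam1 and Cdh5 did not overlap with KO higher, where 8.28% of all genes tested do not overlap in either direction. Krt19 measured 6.11, 4.75 and 6.93 across WT, against 2.86, 4.38 and 2.502 across KO. The summed level of these 5 markers overlapped, from 11.58 to 12.62 in WT and from 11.70 to 12.58 in KO. This sum is mostly Spp1, which alone measured 11.32 to 12.56 in WT and 11.62 to 12.54 in KO. Their mean centred level, which weighs each marker alike, did not overlap. It was 0.68, 0.022 and 1.06 across WT, against -0.92, -0.16 and -0.68 across KO. All 4 endothelial markers were higher in KO by a median of 0.16. Macrophage markers (3 of 5 lower), T cell markers (2 of 5 lower), B and plasma cell markers (2 of 4 lower), erythroid markers (3 of 4 lower), stellate markers (4 of 5 lower) and hepatocyte markers (4 of 6 lower) had members in both directions. Marker genes with an unadjusted p under 0.05 by limma were Krt19 (log2 fold change -2.68), Krt7 (-2.20), Jchain (-1.58), S100a8 (-1.39), S100a9 (-1.08), Lrat (-0.79), Hba-a1 (-0.83), Klf1 (-1.47) and Cdh5 (0.40). The smallest p among hepatocyte, macrophage and T cell markers belonged to Ttr, Cd5l and Cd3g. The part of these cells in the difference of Ccnd1 was not tested.

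Levels of the 10 genes relative to each other were compared per length, as the log2 value minus log2 of the gene's summed exon length in kilobases. Ccnd1 was highest, at 8.12 ± 0.54 (SD over 6 libraries), and above the next gene, Mki67 at 7.10 ± 0.43, in 6 of 6 libraries. Mki67 exceeded Ccnb2, at 6.58 ± 0.59, in 5 of 6, and Ccnb2 exceeded Ccna2, at 5.64 ± 0.43, in 6 of 6. From Ccna2 through Ccne1 (5.41), Cdk1 (5.12), Cdk2 (5.01) and Ccnb1 (4.94) to Cdkn2a, neighbours in this order differed by less than their SD over the libraries and changed places between libraries. Cdkn2a lay at 4.61 and Ccne2 was lowest, at 4.14. Exon length counts every annotated exon, so genes with long unused exons are placed too low. Whether the deposited values were already scaled for length is not known, so the order depends on this step. Before it, Ccnd1 lay above Mki67 in the WT mean (10.72 against 10.32) but below it in the KO mean (9.995 against 10.54).

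The genes most like the mitotic mean over the 6 libraries, outside the 10, were Arr3 and 9230111E07Rik (both r = 0.995), Dtymk (0.991), Hsd17b7 (0.988) and Fam81a (0.987). Arr3, at 0.42 to 1.53, and 9230111E07Rik, at 0.66 to 2.57, lay near the bottom of the log2 scale. Dtymk, the thymidylate kinase of DNA precursor synthesis, was between 7.51 in WT replicate 1 and 7.86 in the library labelled WT replicate 2. Those most like Ccnd1 were Tomm40 (0.986), Gm14382 (0.983), Gm26711 (0.980), Dpm1 (0.979) and Srsf4 (0.978). Among the list genes, Cdk6 had r = 0.906 and E2f1 r = 0.856 with Ccnd1, and Cdkn1a had r = -0.877. These are the extremes among 22677 genes over 6 libraries and are given as a description.

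Reads can be shared with other genes in 6 of the 10. Exons of Ccnd1, Ccne2, Ccna2 and Cdk2 overlap exons of genes on the opposite strand, over 1100 bases (23.4% of exon length) with Oraov1 for Ccnd1, 609 bases (17.4%) with Ints8 for Ccne2, 510 bases (12.5%) with Exosc9 for Ccna2 and 34 bases (0.547%) with Pmel for Cdk2. The libraries were stranded, but the strand setting of the counting is not given in the sources used here. Oraov1 measured 7.47, 7.42 and 7.44 across WT, against 6.96, 7.42 and 6.81 across KO, lower in KO as Ccnd1 was, and its share in the Ccnd1 difference was not tested. Ccnb1 has 5 annotated relatives with at least 95% identity over at least 200 bases. The 2 of them listed in the table, Ccnb1-ps and Gm12856, had log2 values of 1.94 or less, far below Ccnb1. The study's methods kept reads with a single mapping, so reads shared with such copies may be missing from Ccnb1. Mki67 has 1 such relative, Gm44521, with 98.6% identity over 216 bases.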

How the data were processed

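RNA of 6 liver tumors was sequenced. The authors deposited log2 values, 1 column per library and 1 row per gene symbol. Before that, reads were trimmed (Trimmomatic 0.36), aligned and summarised by featureCounts, and the authors' own comparison used DESeq2. The study's methods name BWA and Mm 8, whereas the submitters' processing notes name STAR 2.5.1 and GRCm38. Of the table's symbols 99.1% occur in GENCODE M21, an annotation of GRCm38. The transform behind the deposited log2 values is not given in the sources used here, and since they are not counts, the depth is unknown and no count test was run. The table has 3 unnamed columns with leftover ratio cells of the authors, not used here, and 0 further columns of sample values.

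Groups and replicate numbers came from the sample titles. The 2 genotypes were fitted in R 4.3.3 by limma 3.58.1 (lmFit, eBayes with a trend, Benjamini-Hochberg adjustment), over genes above the lowest 25% of means, and checked on simulated data. Single values were compared by exact permutation, and gene pairs by all 720 pairings. Near-identical transcripts were sought with blastn 2.17.0. Genes named are the members, Top1mt, list genes with an unadjusted p under 0.05 or the smallest p of their list, and the genes most like the mitotic mean and Ccnd1; Epcam, Ly6g, E2f1, Tfdp1, Alb, Cd3e, Pecam1, the correlated list genes, overlapping genes and Gm42418 were named after their values were seen. The members and lists were chosen with earlier results of these data known. Alternatives were limma without trend, quantile normalization, other filters, leaving out each library, a block on replicate number, medians in place of means, and deviations from genotype means; leaving out 2 libraries together, leaving out Ccnb2 and leaving out each library for the mitotic machinery list were added after seeing the data.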

Additional observations from a re-analysis of the deposited data

How the results depend on the processing

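Unfiltered, the table gave 4 calls by limma at an adjusted p of 0.05 (1700049E15Rik, Gm14130, Gm25081 and Gm26962). Leaving out 1 library gave 0 to 1 calls, namely Prom1 when KO replicate 1 was omitted. None is a member, and the cause was not tested. Over 120 member values under the alternatives 109 kept their direction and none passed (smallest adjusted p by limma 0.851). The 11 that reversed belong to 6 genes. With 1 library left out the log2 fold change ran from -0.21 to 0.32 for Ccna2, from -0.53 to 0.13 for Ccnb1, from -0.67 to 0.17 for Ccnb2, from -0.090 to 0.71 for Cdk1, from -0.21 to 0.13 for Cdk2 and from -0.12 to 0.40 for Mki67. Without the library labelled WT replicate 2 and KO replicate 1 together Ccnb2 was 0.16. The causes were not tested. The mitotic mean difference ran from -0.33 to 0.26 with 1 library left out. The median r with 1 library left out ran from 0.41 to 0.91 over mitotic pairs, from -0.20 to 0.55 over G1 pairs and from -0.25 to 0.37 between them. The replicate block gave 0 genes past the threshold and changed no member's direction or call. Deviations from the group means correlated between libraries of 1 number by -0.12, -0.076 and 0.052, so the numbers were not taken to pair the samples. Depth is unknown and could not be weighed.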
